A study of Mus musculus with 2 samples.

Results

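Ptgs2-negative mature neutrophils were picked out of sorted immune cells of mouse liver tumors by a rule on their unique molecular identifier (UMI) counts. A barcode, which stands for 1 droplet, was a member when it had at least 1 UMI of Csf3r, at least 0.5% of its UMIs from S100a8 and S100a9, under 1% from the secondary granule genes Camp, Ngp and Ltf, no UMI of Ptgs2, at most 1 UMI of Cd3d, Cd3e and Cd3g together, and none of Cd79a or Csf1r. The rule found 553 members among 25814 barcodes, 127 of 14201 in the lenvatinib library and 426 of 11613 in the combo library. Since measured values chose the members, their levels of these genes and their contrast with Ptgs2-positive cells are descriptions.

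Both libraries held live CD45+ cells sorted from liver tumors of a lenvatinib-resistant hepatocellular carcinoma (HCC) model. Wild-type male C57BL/6J mice aged 6 to 8 weeks received plasmids for human MYC, a guide RNA against Trp53 and the sleeping beauty transposase by hydrodynamic tail vein injection, a route that reaches liver cells, and from day 12 were given lenvatinib at 30 mg/kg for 25 days. The lenvatinib library came from tumors kept on lenvatinib, a multikinase inhibitor, and the combo library from tumors treated with lenvatinib and palbociclib, a CDK4/6 inhibitor given at 100 mg/kg. Lenvatinib exposure was thus common to both groups, no untreated or palbociclib-only library was analysed here, and the number of mice behind a library is not given in the sources used here. With 1 library per condition, treatment, animal and library cannot be told apart, no test was possible, and the printed 95% intervals and ranges cover counting error only.

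Neutrophils leave the bone marrow once their granules are filled, and genes of granule proteins are switched off in sequence as the cells mature, those of the primary granules first and those of gelatinase granules late. Csf3r encodes the receptor for the growth factor G-CSF, and S100a8 and S100a9 form calprotectin, the most abundant cytosolic protein of these cells. Ptgs2 encodes cyclooxygenase 2, the inducible enzyme of prostaglandin synthesis, which neutrophils switch on with Il1b and chemokine genes after inflammatory stimuli.

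Markers of mature neutrophils that the rule did not use were found in part of the members. Cxcr2, the receptor for neutrophil-attracting CXC chemokines, had a UMI in 94 of 127 lenvatinib members and 377 of 426 combo members. Retnlg, a resistin-like gene of mature neutrophils, had one in 76 and 381 members, and Stfa2l1, a stefin A gene, in 41 and 341. Ly6g, the surface antigen used to sort mouse neutrophils, had a UMI in only 20 and 201 members. With every barcode thinned to 1000 UMIs, Cxcr2 was seen in 43.2% of lenvatinib and 47.7% of combo members against 0.0568% and 0.380% of T cells, which should lack it. At the same depth the Retnlg share was 53.4% and 83.7% in members and 1.02% and 11.8% in T cells, where such UMIs are free RNA. Csf1r and Cd79a were at 0 by rule, and Epx, a defining eosinophil gene, had no UMI in any member, while Epx, Prg2, Mcpt8 and Cpa3 together had a UMI in 2 lenvatinib and 12 combo members. Siglecf, which eosinophils and some tumor neutrophils carry, had a UMI in 7 of 127 and 20 of 426 members, against 4 of 7138 and 2 of 5013 T cells.

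Some members also carried many UMIs of other cell types. In the lenvatinib library 8 of the 127 barcodes had at least 10 UMIs of the markers of another type or of the primary granule genes Mpo, Elane, Prtn3 and Ctsg, and these 8 held 28.7% of all member UMIs. In the combo library 9 of 426 did, with 5.76% of the UMIs. The lenvatinib barcodes comprised 3 with primary granule UMIs, 4 with dendritic and 3 with NK markers, some of them counted under more than one type. The 2 largest had 47041 and 31760 UMIs, of which 2024 and 1204 were of the 4 primary granule genes, with 1 and 0 UMIs of Retnlg and none of Cxcr2. Of the 3345 primary granule UMIs in lenvatinib members, 3336 lay in 3 barcodes. The 2 largest lenvatinib barcodes go against the label. So does the one with 3441 UMIs, which had 108 of the primary granule genes and none of Retnlg or Cxcr2. None of the 8 lenvatinib barcodes had more than 2 Retnlg UMIs. Only those with 12362 and 8872 UMIs had Cxcr2, with 7 and 5 UMIs. All barcodes past the limit of 10 UMIs are called off-type barcodes, and list counts and the genes that stand apart are also given without them. The limit took no account of depth, and not every off-type barcode lacked mature neutrophil markers. In the combo library 1 of them, with 14032 UMIs, had 298 of Retnlg and 8 of Cxcr2, and another, with 31402 UMIs, had 3 and 1. Scrublet, which scores barcodes by their likeness to artificial cell pairs, called 5 lenvatinib and 4 combo members doublets, of which 3 and 2 were off-type barcodes. The libraries shared 49 barcode sequences by name, of which 1 was a combo member and none a lenvatinib member.

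**Figure D1:**
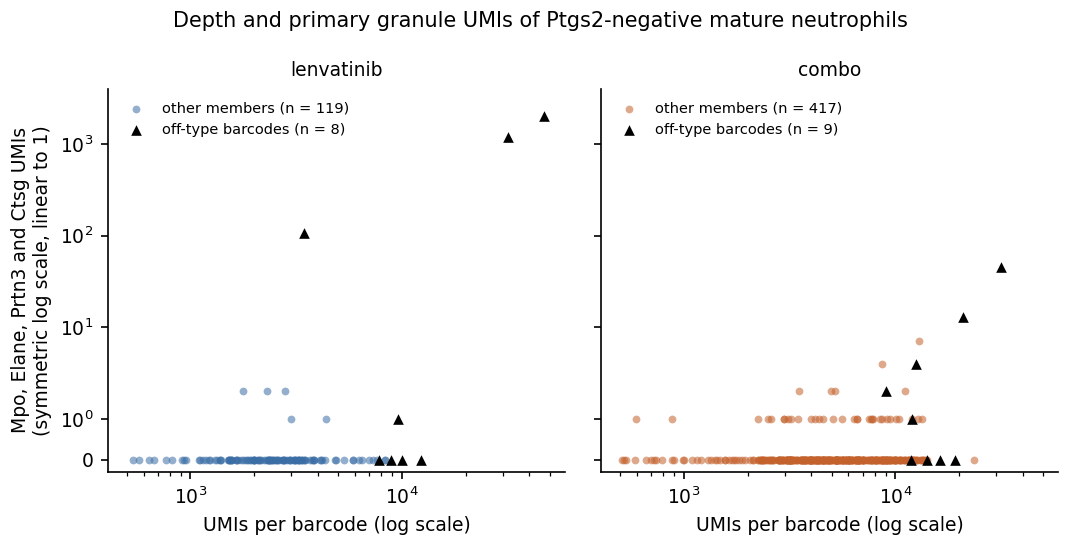
Each point is 1 member barcode, with its UMIs on the x axis (log scale) and its UMIs of Mpo, Elane, Prtn3 and Ctsg on the y axis (symmetric log scale, linear to 1), for the lenvatinib library on the left and the combo library on the right. Triangles are off-type barcodes, 8 of 127 and 9 of 426, and the 3 highest lenvatinib triangles hold 3336 of the 3345 such UMIs.

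Depth differed between the libraries in these cells. The median was 2482 UMIs per lenvatinib member (quartiles 1711 and 3451) and 5194 per combo member (quartiles 3353 and 8075), and 9 and 15 members had under 1000. T cells had medians of 6289 and 5637 UMIs, the opposite order. The median share of mitochondrial UMIs was 1.72% in lenvatinib and 0.916% in combo members. S100a8 and S100a9 took a median of 8.15% of the UMIs of a lenvatinib member and 22.2% of those of a combo member. The summed member counts came to 456075 and 2553321 UMIs, so that 10 counts correspond to 21.9 CPM (counts per 1000000 UMIs) in the lenvatinib library and 3.92 CPM in the combo library. For these reasons levels are also given at equal depth, either with each member thinned to 1000 UMIs or in the 60 lenvatinib and 115 combo members with 2000 to 4000 UMIs, whose medians were 2757 and 3144. The part of depth, mitochondrial share and free RNA in the results was not tested.

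Barcodes lay close to each limit of the rule. For S100a8 and S100a9, 17 lenvatinib and 14 combo members had 0.5% to 1% of their UMIs, and 15 and 46 barcodes that met every other criterion had 0.25% to 0.5%. A Retnlg UMI was present in 1 of the 17 and 5 of the 14 inside, and in 1 of the 15 and 22 of the 46 outside. In T cells, where such UMIs are free RNA, S100a8 and S100a9 took 0.0555% of UMIs under lenvatinib and 0.451% under combo. The limit of 0.5% thus lay close to the free RNA level in the combo library only. For the secondary granule genes, 9 and 30 members had 0.5% to 1% and 5 and 36 barcodes outside had 1% to 2%. Exactly 1 Ptgs2 UMI kept 61 lenvatinib and 109 combo barcodes out of the group, and 27 and 50 members were in it with a single Csf3r UMI.

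Members were 0.894% (0.746% to 1.06%) of the filtered barcodes under lenvatinib and 3.67% (3.33% to 4.03%) under combo, 4.10 times as many (range 3.14 to 5.40). Over the mature neutrophil gate, which is the same rule with any number of Ptgs2 UMIs, the member share was 25.1% (127 of 505) under lenvatinib and 42.5% (426 of 1002) under combo, a ratio of 1.69 (1.35 to 2.13). Over all gated neutrophils, with the immature cells included, the shares were 23% and 34.0%, a ratio of 1.48 (1.17 to 1.87). The share of Ptgs2-positive mature neutrophils among all barcodes was 1.86 times higher under combo (2.66% against 4.96%) and that of immature neutrophils 6.65 times (0.324% against 2.15%). The higher share over all barcodes was therefore seen in each of the 3 neutrophil groups.

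A missing Ptgs2 UMI depends on depth, but the member share of the mature gate did not follow depth in 1 direction. Among barcodes with 500 to 1000, 1000 to 2000, 2000 to 4000, 4000 to 8000 and over 8000 UMIs it was 45.0%, 30.6%, 19.7%, 32.0% and 42.1% under lenvatinib. The corresponding combo shares were 75%, 40.5%, 29.1%, 45.1% and 64.7%. In both libraries the lowest share lay at 2000 to 4000 UMIs, and within each bin the combo share was the higher, with intervals that overlapped in every bin but that of 2000 to 4000 UMIs (15.4% to 24.6% against 24.7% to 33.9%). With all barcodes thinned to 1000 UMIs, 36.5% (32.2% to 41.0%) of 485 lenvatinib and 62.2% (59.1% to 65.3%) of 982 combo mature neutrophils had no Ptgs2 UMI. Ptgs2-positive cells of 2000 to 4000 UMIs had a median of 7 Ptgs2 UMIs under lenvatinib and 5 under combo.

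**Figure D2:**
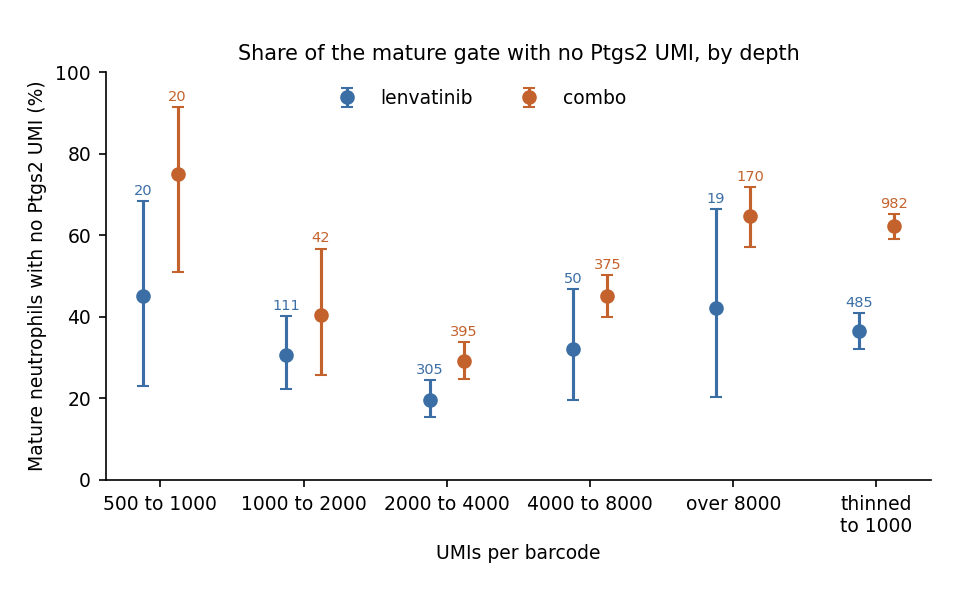
Share of the mature neutrophil gate with no Ptgs2 UMI (y axis, percent) by UMIs per barcode (x axis) in the lenvatinib and combo libraries, with exact 95% binomial intervals and the number of barcodes above each. The combo share is the higher in every bin, and 62.2% against 36.5% with all barcodes thinned to 1000 UMIs.

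Member counts were summed per library and compared as CPM, over genes that reached 50 CPM in either library and had 10 or more counts in both, without the genes of the rule. Of 2678 such genes, 70 (2.61%) were at least 2-fold higher under combo and 727 (27.1%) at least 2-fold lower. Without the off-type barcodes 43 of 2371 genes (1.81%) were higher and 487 (20.5%) lower, and with members thinned 32 of 1719 (1.86%) were higher and 387 (22.5%) lower. The median log2 ratio of all genes tested was -0.57 (-0.49 without off-type barcodes), which is to be read beside the larger share of S100a8 and S100a9 in combo members: it was -0.38 with both left out of the total. Relative to the median, 218 genes were at least 2-fold higher and 258 lower. A log2 ratio near -0.57 is thus the background for the lists below.

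The stefin A genes were the highest above this background. They encode small cytosolic inhibitors of cysteine proteases such as cathepsins, and mice carry a cluster of them where humans have a single gene. Of the 11 genes listed, 10 lie within 335 kb of chromosome 16, at chr16:36119946-36455392 of GRCm38 in the GENCODE annotation, 5 on each strand. The other gene, Cstb (cystatin B), lies on chromosome 10. Of the 7 genes of the list that could be tested, 6 were at least 2-fold higher under combo and none lower. The shares of all genes were 2.61% and 27.1%. The median log2 ratio of the list was 2.35 (1.95 without off-type barcodes).

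The promoters of several of these genes read alike. Over the 250 bases before the RefSeq start, 6 of the genes were 66.4% to 89.4% identical in 15 pairs (median 72.6%). The letters TTTAAA, which were chosen after the sequences had been read and were searched on both strands, were found within these 250 bases in 8 of 9 stefin promoters with an entry and in 12.1% of all 32851 RefSeq promoters. GAGGAGGAG was found in 6 of 9 and 2.75% of all. TTGCNNAA, the core of C/EBP sites, was in 3 of 9 and 9.56% of all. The 60 bases before the start are shown for the 4 genes where no annotated exon overlaps them, with TTTAAA in capitals, from the plus strand for Stfa2l1 (chr16:36156751-36156810), Cstdc4 (chr16:36184152-36184211) and Csta3 (chr16:36210343-36210402) and the minus strand for Stfa3 (chr16:36455393-36455452), GRCm38.
Stfa2l1: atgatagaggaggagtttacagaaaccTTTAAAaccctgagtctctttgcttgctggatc
Cstdc4: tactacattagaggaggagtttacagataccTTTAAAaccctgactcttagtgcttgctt
Stfa3: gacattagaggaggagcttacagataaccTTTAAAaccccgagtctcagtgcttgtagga
Csta3: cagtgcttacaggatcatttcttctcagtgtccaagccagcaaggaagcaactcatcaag
The capitals begin 33, 29 and 31 bases before the start in Stfa2l1, Cstdc4 and Stfa3, the 60 bases of Csta3 do not hold these letters, and a match is only a description of the letters.

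Stfa1 had 32 UMIs in 8 lenvatinib members and 9909 UMIs in 226 combo members, or 70.2 CPM (48.0 to 99.0) against 3881 CPM (3805 to 3958). The ratio was 55.3 (range 38.4 to 82.5), and 41.8 without off-type barcodes. Cstdc5 had 129 CPM under lenvatinib, from 3 members, and 5066 CPM under combo, from 235 members, a ratio of 39.2. Stfa2 went from 132 CPM (6 members) to 3440 CPM (242 members), a ratio of 26.1. Stfa3 had 6 UMIs in 2 lenvatinib members and 2827 in 188 combo members, 13.2 CPM against 1107 CPM, and fell under the count minimum. These 4 genes were thus almost absent from lenvatinib members.

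Stfa2l1 and Cstdc4 were present in both libraries. Stfa2l1 stood at 818 CPM under lenvatinib and 2975 CPM under combo, a ratio of 3.64 (3.21 to 4.13). Cstdc4 stood at 781 and 3982 CPM, a ratio of 5.10 (4.51 to 5.79), and Csta2 at 37.3 and 186 CPM. Cstb, outside the cluster, was at 318 and 190 CPM, a ratio of 0.596 (0.463 to 0.772). The 10 genes of the cluster took 0.198% of member UMIs under lenvatinib and 2.07% under combo, 10.4 times as much (9.70 to 11.3), and 7.87 times without off-type barcodes.

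The stefin difference remained at equal depth. In members of 2000 to 4000 UMIs, Stfa1 was at 142 CPM (24 UMIs) under lenvatinib and 1751 CPM (631 UMIs) under combo, a ratio of 12.3 (7.66 to 20.8). Stfa2 had a ratio of 9.61 there, Cstdc5 29.8, Stfa2l1 3.52 and Cstdc4 3.16, while Cstb had 0.952. With members thinned to 1000 UMIs, a Stfa1 UMI was seen in 5.08% of 118 lenvatinib and 42.6% of 411 combo members, against 0.0142% and 1.36% of T cells. The share for Stfa3 was 0.847% and 31.4%.

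Several of these genes were seen together in many combo and few lenvatinib members. Of Stfa1, Stfa2, Stfa3 and Cstdc5, 108 of 118 lenvatinib members had none at 1000 UMIs, 7 had 1, 3 had 2 and none had more. Among 411 combo members 146 (35.5%) had none, 69 had 1, 62 had 2, 57 had 3 and 77 (18.7%) had all 4. In the lenvatinib library the 4 genes had 157 UMIs in 14 members, of which 49.7% lay in 1 member, so their lenvatinib levels rest on few cells. In the combo library they had 34454 UMIs in 336 members, and the highest member held 3.15%. The median member had 0 stefin UMIs under lenvatinib and 0.960% of its UMIs under combo. The difference was thus not carried by a few combo cells.

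Stefin levels also differed between the libraries outside the members. In Ptgs2-positive mature neutrophils the cluster took 0.172% of UMIs under lenvatinib and 1.35% under combo, a ratio of 7.85, with 52.2 for Stfa1 and 57.8 for Cstdc5. In immature neutrophils the cluster rested on 19 UMIs under lenvatinib and 21867 under combo. T cells, where such UMIs are free RNA, had 2.24 and 75.1 CPM. Reads of near-identical copies cannot be assigned with certainty: 39.6% of 50-base windows in the last 400 transcript bases of Stfa1 and 50.4% of those of Cstdc5 occur in another stefin gene, as do 37.0% for Cstdc4 and Csta2, 17.7% for Stfa2 and Stfa2l1 and none for Stfa3. Values of single genes other than Stfa3 are uncertain to that degree, while the sum over the cluster is less touched.

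**Figure D3:**
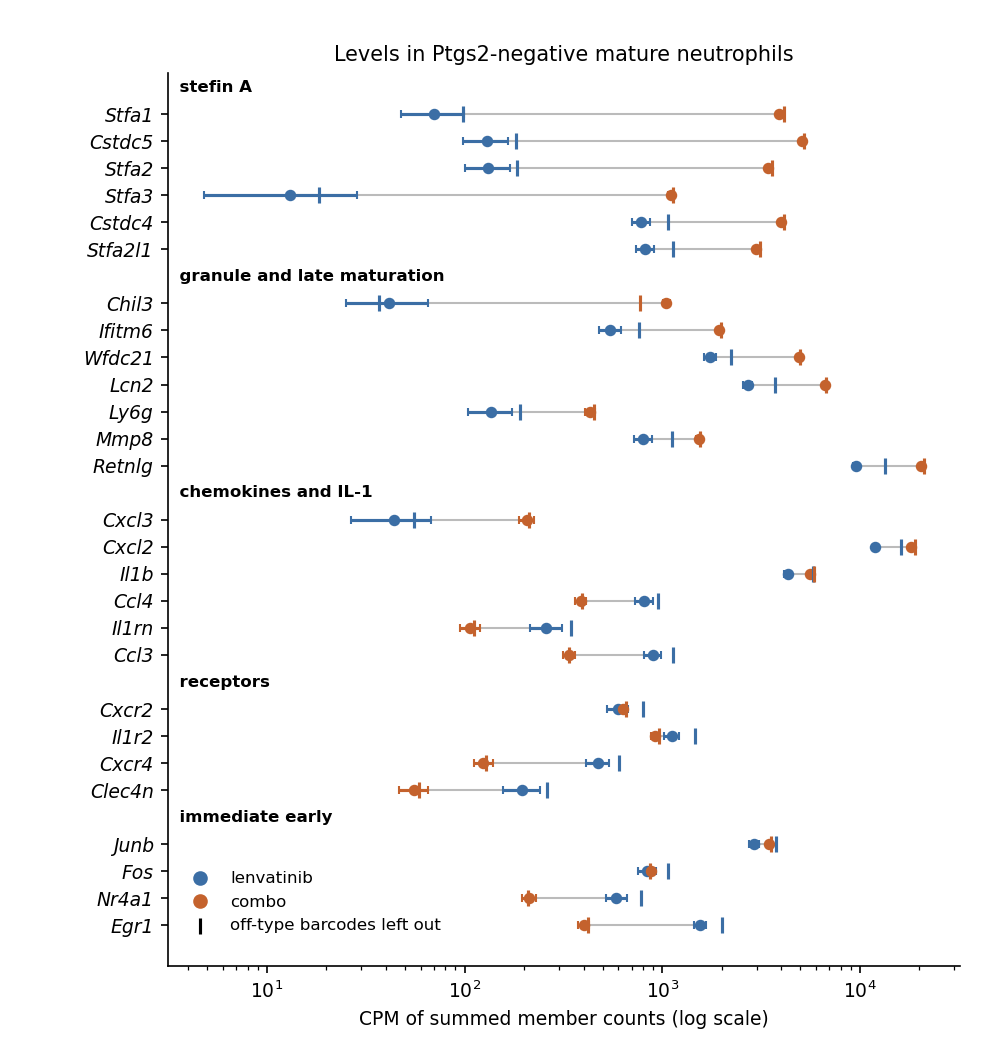
CPM of summed member counts (x axis, log scale) for genes grouped by role (y axis), for lenvatinib (blue) and combo (orange) with exact 95% Poisson intervals. Vertical ticks give the level without off-type barcodes, and Stfa1, Cstdc5, Stfa2 and Stfa3 stand between 13.2 and 132 CPM under lenvatinib and between 1107 and 5066 CPM under combo.

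Secondary granule genes encode antimicrobial proteins made at the myelocyte stage. Of 7 genes of this list that could be tested, with Camp, Ngp and Ltf left out as genes of the rule, 4 were at least 2-fold higher under combo and none lower (median log2 ratio 1.30, and 0.85 without off-type barcodes). Of all genes 2.61% were higher and 27.1% lower. Chil3, a chitinase-like protein, had 19 UMIs in 9 lenvatinib members and 2679 in 159 combo members, 41.7 CPM against 1049 CPM, a ratio of 25.2 (15.5 to 43.4). It was in 2.54% and 14.8% of members at 1000 UMIs, beside 0.795% and 5.06% of T cells. Ifitm6, which encodes a membrane protein of the Ifitm family and not a granule protein, stood at 546 and 1939 CPM (ratio 3.55). Wfdc21 stood at 1745 and 4898 CPM (2.81) and Lcn2, the iron-binding lipocalin, at 2706 and 6664 CPM (2.46). Olfm4, an olfactomedin of a subset of neutrophils, had 10 UMIs in 3 lenvatinib members and 1403 in 141 combo members, a ratio of 25.1 (12.9 to 55.1).

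Members of 2000 to 4000 UMIs and thinned members gave different values for the most abundant granule genes. In members of 2000 to 4000 UMIs the Lcn2 levels were 2038 and 2209 CPM, a ratio of 1.08 (0.909 to 1.29), and the Wfdc21 ratio was 1.32. Retnlg, at 9542 and 20272 CPM over all members (ratio 2.12), was lower under combo there, at 5820 and 3719 CPM (ratio 0.639, 0.569 to 0.718). Chil3 kept a ratio of 29.0 on 3 lenvatinib UMIs (8.53 to 162), Ifitm6 2.11 and Olfm4 3.34. With all members thinned to 1000 UMIs the ratios were 2.06 for Retnlg, 2.02 for Lcn2 and 3.02 for Wfdc21, and a Lcn2 UMI was seen in 56.8% and 83.2% of members. Retnlg was thus lower under combo in members of 2000 to 4000 UMIs, which are 47.2% of the lenvatinib and 27.0% of the combo members, and higher under combo when all members were thinned.

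Genes of late maturation were closer to each other. Of 8 genes of the tertiary granule list none was 2-fold higher or lower, beside 2.61% and 27.1% of all genes (median log2 ratio 0.05). Without off-type barcodes none was either, with a median of -0.27 against -0.49 over all genes. With members thinned 1 of 7 was higher and none lower, with a median of -0.18 against -0.51. Mmp9, the gelatinase, stood at 1300 and 1404 CPM (ratio 1.08). Mmp8, the neutrophil collagenase, stood at 800 and 1529 CPM (1.91). Of the 7 NADPH oxidase genes none passed 2-fold (median log2 ratio 0.12, and -0.11 without off-type barcodes), beside the same shares of all genes. Primary granule genes had 7334 CPM in lenvatinib and 45.4 CPM in combo members, but 24.6 and 21.2 CPM without off-type barcodes, no higher than the 38.1 and 34.3 CPM in T cells. UMIs of these genes were part of the limit for off-type barcodes, so a fall without them was set by that choice. The lowest ratios of all genes, those of Mpo, Prtn3, Fcnb, Cox6a2, Gstm1, Tcf4, Ube2c, Ccnd1, Ccr9 and Ssbp3, were between 0.00218 and 0.0857. Without off-type barcodes the lenvatinib level of Mpo was 9.22 CPM and that of Prtn3 6.15 CPM, against 1796 and 2204 CPM with them.

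Cxcr4, which retains neutrophils in the marrow and marks aged cells, had 216 UMIs in 80 lenvatinib members and 318 in 186 combo members, 474 CPM against 124 CPM, a ratio of 0.263 (0.206 to 0.337). At 1000 UMIs it was in 41.5% and 12.4% of members, beside 16.6% and 14.4% of T cells, which express it themselves. Its ratio in members of 2000 to 4000 UMIs was 0.514 (0.358 to 0.739). It was the only gene of the 14 receptors tested at least 2-fold lower, beside 27.1% of all genes, and none was 2-fold higher. Without off-type barcodes 3 were lower, beside 20.5% of all genes, and 1 higher, beside 1.81%. Cxcr2 stood at 596 and 635 CPM (1.07, 0.900 to 1.26). Ptafr and Cd44, the receptors for platelet-activating factor and hyaluronan, had ratios of 0.505 and 0.549 over all members and 0.384 and 0.428 without off-type barcodes, and Ltb4r1, the leukotriene B4 receptor, had 1.96 and 2.06.

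Members expressed chemokines and Il1b in spite of having no Ptgs2 UMI. Cxcl2, a ligand of CXCR2, was among their most abundant mRNAs, at 11981 CPM under lenvatinib and 18207 CPM under combo, with a UMI in 93.2% and 98.1% of members thinned to 1000 UMIs against 3.99% and 15.6% of T cells. Il1b stood at 4309 and 5619 CPM, with a UMI in 83.1% and 86.4% of thinned members against 1.99% and 5.04% of T cells. The ratio for Cxcl2 was 1.52 (1.47 to 1.58) and that for Il1b 1.30 (1.23 to 1.39), and without off-type barcodes 1.17 and 1.01. Among members of 2000 to 4000 UMIs they were 1.40 and 1.72. Of 7 chemokine genes 2 were higher and 2 lower, with and without off-type barcodes, beside 2.61% and 27.1% of all genes over all members. Cxcl3 stood at 43.9 and 206 CPM (ratio 4.70, on 20 lenvatinib UMIs) and Cxcl10, an interferon-induced ligand of CXCR3, at 114 and 349 CPM (3.06). Ccl3 and Ccl4, which encode inflammatory CC chemokines, stood at 895 and 339 CPM (0.379) and at 809 and 386 CPM (0.477). In members of 2000 to 4000 UMIs their ratios were 0.619 (0.493 to 0.777) and 0.575 (0.456 to 0.726), neither 2-fold lower. A Ccl3 UMI was seen in 42.4% and 19.7% of thinned members, against 9.25% and 9.49% of T cells. For Ccl4 the shares were 27.1% and 14.4%, against 24.3% and 25.5% of T cells.

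Among 9 IL-1 and prostaglandin genes, 2 were at least 2-fold lower, beside 27.1% of all genes, and 1 was higher. Without off-type barcodes 4 were lower, beside 20.5% of all genes, and none was higher. Il1rn, the secreted IL-1 receptor antagonist, stood at 259 and 107 CPM (ratio 0.413, 0.305 to 0.562), and Tnf at 230 and 107 CPM (0.463). Tnf had a ratio of 1.24 (0.769 to 2.04) in members of 2000 to 4000 UMIs, a range that includes 1, and 0.355 without off-type barcodes, while Il1rn had 0.481 and 0.325. Alox5ap, which presents arachidonate to 5-lipoxygenase, stood at 1153 and 2457 CPM (2.13), and at 1.72 times without off-type barcodes.

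Immediate early genes are induced by many stimuli, tissue dissociation among them. Of 17 tested 3 were at least 2-fold lower and none higher (median log2 ratio -0.49), a smaller share than the 27.1% of all genes. Without off-type barcodes 5 of 17 were lower, beside 20.5% of all genes, with a median of -0.80 against -0.49. Egr1 had 709 UMIs in 91 lenvatinib members and 1023 in 213 combo members, 1555 CPM against 401 CPM, a ratio of 0.258 (0.225 to 0.295), and 0.209 without off-type barcodes. Nr4a1 stood at 585 and 212 CPM (0.362, and 0.269 without them) and Atf3 at 217 and 94.8 CPM (0.437). Fos and Junb did not share this pattern, with ratios of 1.04 and 1.19. Egr1 had a ratio of 0.440 and Nr4a1 0.445 in members of 2000 to 4000 UMIs. Atf3 had 0.652 there (0.414 to 1.03), a range that includes 1.

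Without off-type barcodes the lowest ratio belonged to Thbs1, thrombospondin 1, at 1184 CPM under lenvatinib and 89.8 CPM under combo (ratio 0.0758). It was detected in 35.6% and 6.81% of members at 1000 UMIs. Csf1, the macrophage growth factor, stood at 357 and 32.8 CPM (0.0920) and was in 23.7% and 3.41% of members, and Egr3 stood at 129 and 18.3 CPM (0.142). In members of 2000 to 4000 UMIs the ratios were 0.162 for Thbs1, 0.268 for Csf1 and 0.228 for Egr3. Thbs1 and Csf1 were in 26.7% and 8.93%, and in 28.3% and 9.46%, of Ptgs2-positive cells, so this order was not limited to members.

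Among genes of suppressive or tumor-associated neutrophils, Arg1 had no UMI in any member, which allows up to 6.58 CPM under lenvatinib and 1.17 CPM under combo, and Nos2 had 0 and 58 UMIs. Of 8 suppressive function genes 3 were at least 2-fold lower, with and without off-type barcodes, beside 27.1% and 20.5% of all genes, and none higher. Their median log2 ratio was -0.38, above that of all genes, and -0.77 without these barcodes. Clec4n, the fungal receptor dectin-2, stood at 195 and 55.2 CPM (ratio 0.283, and 0.224 without off-type barcodes). Cd274, which encodes PD-L1, stood at 114 and 47.0 CPM (0.412 and 0.325) and Tgfb1 at 105 and 35.6 CPM (0.339 and 0.274). In members of 2000 to 4000 UMIs the ratio was 0.659 (0.412 to 1.06) for Clec4n and 0.470 (0.186 to 1.19) for Tgfb1. Both of these ranges include 1, while that of Cd274 did not (ratio 0.457, 0.235 to 0.891). Of 11 tumor-associated neutrophil genes 3 were lower, a share near the 27.1% of all genes, and 1 higher. Without off-type barcodes 4 were lower, beside 20.5% of all genes, and none higher. Cd14, the co-receptor for lipopolysaccharide, stood at 386 and 997 CPM (2.58), with ratios under 2 without off-type barcodes (1.91) and thinned (1.86). Prok2, a chemokine-like prokineticin, had 9 UMIs in 6 lenvatinib members and 916 in 165 combo members, 19.7 against 359 CPM, under the count minimum.

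Genes of hypoxia and glycolysis had a median log2 ratio of 0.61 over 16 genes. Of these 2 were at least 2-fold higher and 1 lower, beside 2.61% and 27.1% of all genes. Without off-type barcodes 3 were higher and 1 lower, beside 1.81% and 20.5%. Hilpda, a lipid droplet protein induced by hypoxia, stood at 32.9 and 182 CPM (ratio 5.53, 3.05 to 10.8) and Ldha, lactate dehydrogenase, at 210 and 492 CPM (2.34). Gapdh and Aldoa had 1.76 and 1.99. Vegfa, the target ligand of the receptors that lenvatinib blocks, stood at 87.7 and 38.0 CPM (0.433, on 40 and 97 UMIs). At 2000 to 4000 UMIs the ratios were 5.13 for Hilpda, 2.35 for Ldha, 2.01 for Gapdh and 0.388 for Vegfa. Outside these lists, Upp1, uridine phosphorylase, was at 57.0 and 381 CPM (6.68) and Tspo, a mitochondrial outer membrane protein, at 368 and 1554 CPM (4.22), with a UMI in 22.0% and 72.7% of members and in 22.2% and 28.8% of T cells at 1000 UMIs.

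Several lists showed little beyond the background or rested on the off-type barcodes. Of all genes 2.61% were at least 2-fold higher and 27.1% lower, and 1.81% and 20.5% without off-type barcodes. Of 20 interferon-stimulated genes 2 were higher and 2 lower (median log2 ratio 0.00). Those higher were the membrane proteins Ifitm1, at 2375 and 5640 CPM (2.38), and Ifitm3 (2.05), and without off-type barcodes none was higher and 1 was lower. Of 7 heat shock genes 4 were lower, and 1 of 6 without these barcodes. Of 9 genes of the cell cycle and the CDK4/6 pathway, the target of palbociclib, 5 were lower, and 2 of 6 without them. Cdk6 had 40 UMIs in 7 lenvatinib and 28 in 26 combo members, and without off-type barcodes it was left in 1 lenvatinib and 24 combo members. Cdk4 had 9 and 17 UMIs, under the count minimum. Of 9 transcription factor genes 3 were lower and 1 higher, and 2 of 7 were lower and none higher without them, and Cebpb and Spi1 had ratios of 1.39 and 1.70. Of 10 survival genes 2 were lower, and 3 without them, with Mcl1 at 1780 and 2065 CPM. Of 9 genes of MHC class I presentation 1 was lower, and 3 without them, and H2-K1 and B2m had ratios of 0.501 and 0.505.

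Against the Ptgs2-positive mature neutrophils of their own library, members differed in few genes past 2-fold. Of 2059 genes tested in both libraries, 5 (0.243%) were at least 2-fold higher in members in both, and 21 (1.02%) at least 2-fold lower. Without off-type barcodes the counts were 6 of 2002 (0.3%) and 12 (0.599%). The rule itself made this contrast, and nothing is read from these shares.

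Cd177 and Ifitm6 were among the 5 genes past 2-fold in both libraries. The genes higher in members by 2-fold numbered 2 in members of 2000 to 4000 UMIs, so the values of this paragraph hold for all members only. Cd177, a neutrophil surface glycoprotein, was 6.48 times as high as in Ptgs2-positive cells under lenvatinib and 2.55 times under combo. Ifitm6 was 2.48 and 2.38 times as high. Mmp8 (3.46 and 1.99 times), Retnlg (3.74 and 1.96 times) and Anxa1, an anti-inflammatory annexin (2.03 and 1.92 times), passed 2-fold under lenvatinib only, and none of the 7 tertiary granule genes tested passed it in both libraries. Of the 6 secondary granule genes tested 2 were at least 2-fold higher in both libraries, beside 0.243% of all genes. Their medians were 1.46 and 0.88 on the log2 scale against -0.11 and -0.24 over all genes.

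The genes lower in members by 2-fold numbered 4 with members thinned and 0 in members of 2000 to 4000 UMIs, so the values below hold for all members only. Bcl2a1d and Bcl2a1b, survival genes of the BCL-2 family with near-identical copies, were at 0.270 and 0.274, and 0.248 and 0.386, of the Ptgs2-positive level. Clec4n was at 0.384 and 0.303 and Ccrl2, an atypical chemoattractant receptor, at 0.419 and 0.443. Of 7 chemokine genes 3 were at least 2-fold lower in both libraries, which were Cxcl3, Ccl3 and Ccl4, beside 1.02% of all genes. Cxcl2 was at 0.568 and 0.578 of the level of Ptgs2-positive cells and Il1b at 0.485 and 0.526. Cxcr2 was closer, at 0.658 and 0.832.

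**Figure D4:**
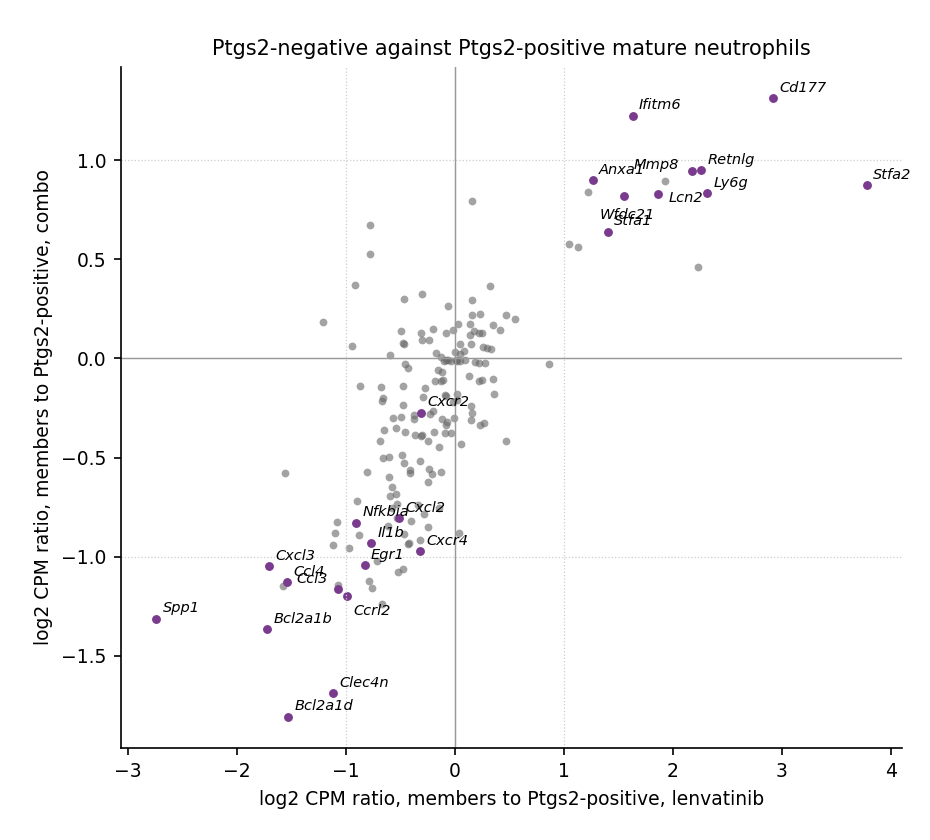
Each point is a listed gene with its log2 CPM ratio of members to Ptgs2-positive mature neutrophils, without off-type barcodes, in the lenvatinib library (x axis) and the combo library (y axis), for 183 genes. Dotted lines mark 2-fold, granule genes such as Cd177 and Mmp8 lie to the upper right, and Clec4n, Bcl2a1b and the chemokine genes to the lower left.

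Members were not uniform. With off-type barcodes left out and members thinned to 1000 UMIs, 50 of 110 lenvatinib members (45.5%) had no Retnlg UMI, 33 (30%) had 1 to 9 and 27 (24.5%) had 10 or more. Of 402 combo members 70 (17.4%), 117 (29.1%) and 215 (53.5%) fell in these ranges. The ranges are parts of a continuum and not cell types: 2 and 15 members had 8 or 9 Retnlg UMIs and 3 and 19 had 10 or 11. Depth moved with the ranges, with median UMIs of 2030, 2390 and 4336 under lenvatinib and 3071, 3993 and 7081 under combo.

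Lcn2 was higher and Ccrl2 lower with each step of Retnlg in both libraries. Lcn2 stood at 841, 2582 and 7231 CPM across the 3 ranges under lenvatinib and at 2270, 3853 and 8368 CPM under combo. Ccrl2 went the other way, from 2323 to 1096 and 278 CPM and from 2366 to 1137 and 343 CPM, with intervals of the libraries that overlapped in each range. Il1b stood at 9382, 6991 and 1846 CPM and at 9505, 10471 and 3824 CPM, so that under combo the middle range was the highest. Cxcr2 showed less spread, at 913, 926 and 636 CPM and at 568, 771 and 637 CPM.

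Within the same range the libraries still differed in other genes. Egr1 stood at 2974, 2424 and 859 CPM under lenvatinib and at 1319, 636 and 211 CPM under combo, lower in each range. Cxcr4 stood at 1021, 609 and 223 CPM and at 268, 205 and 82.0 CPM. Stfa1 stood at 63.3, 292 and 7.95 CPM under lenvatinib and at 691, 4428 and 4554 CPM under combo, higher in each range, with the lower combo value in cells without Retnlg. Cstdc5 had no UMI in the 50 lenvatinib members without Retnlg and stood at 1443 CPM in the 70 such combo members. The stefin, Egr1 and Cxcr4 differences were thus present in members of a like Retnlg range, while Ccrl2 was nearly equal there.

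Across cells, the rank correlation of Retnlg with Lcn2 was 0.68 over 110 lenvatinib and 0.60 over 402 combo members, all thinned to the same depth. With Il1b it was -0.47 and -0.50, and with the summed S100a8 and S100a9, which share the fixed total with it, 0.76 and 0.76. With the summed stefin genes it was only 0.31 and 0.18. Cxcl2 and Il1b had 0.36 and 0.58. These are descriptions of cells that share a library.

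**Figure D5:**
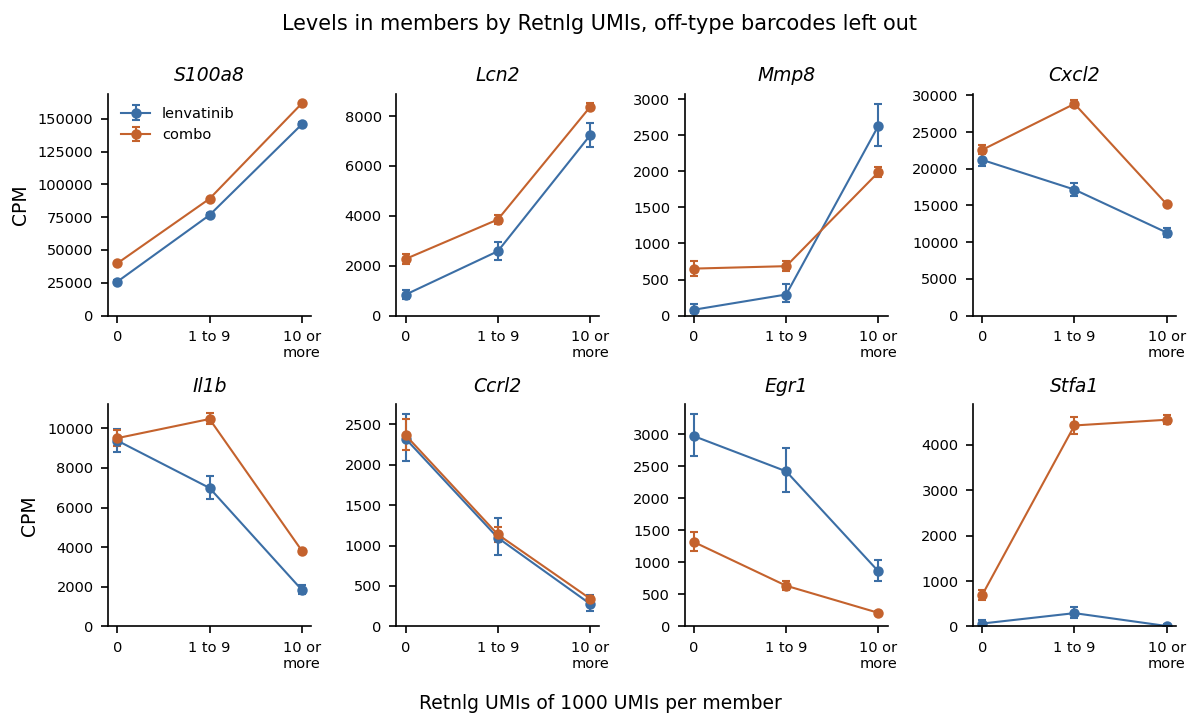
CPM (y axis, linear from 0) of 8 genes in members grouped by Retnlg UMIs of 1000 (x axis), for lenvatinib (blue) and combo (orange), with exact 95% Poisson intervals and off-type barcodes left out. Lcn2 climbs from 841 to 7231 CPM under lenvatinib and from 2270 to 8368 CPM under combo, and Stfa1 stays between 7.95 and 292 CPM under lenvatinib against 691 to 4554 CPM under combo.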

How the data were processed

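Single-cell libraries were made with the Chromium 3′ v3 kit. The authors deposited raw UMI counts for 32285 genes per barcode, aligned to mm10. The processing notes and methods name Cell Ranger 5.0.1 and the matrix headers 6.0.1. Barcodes with at most 6000 genes and at most 25% mitochondrial UMIs, the study's filter, were kept (14201 of 14509 and 11613 of 11989, 98107503 and 93583402 UMIs in all). Members, gene lists and limits were chosen with earlier results of these data known.

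Counts of members were summed per library and given as CPM of all their UMIs. Intervals are exact Poisson or Clopper-Pearson at 95% (scipy 1.17.1, numpy 2.4.6, pandas 2.3.3), and a ratio is given with the lowest and highest value that the interval ends of both libraries allow. Genes were named from 26 lists, from the 10 highest and 10 lowest ratios of each comparison, and for a role in a list. Genes at 0 allow up to 3 counts. Shares with a UMI were taken after thinning to 1000 UMIs, and T cells (at least 2 Cd3 UMIs, no Csf3r) gave the background of free RNA. Doublets were called with Scrublet (scanpy 1.11.5, rate set to 6%), which marked 4.46% and 2.76% of barcodes, and were removed only in an alternative. With another random seed it called none of the lenvatinib barcodes, so its threshold was not stable there. Sequences are RefSeq promoters of GRCm38.p6, of which 9 of the 11 listed stefin genes had an entry used. The steps were tested on simulated data. No test across conditions was made, since each has 1 library. Alternatives covered the cell filter, doublets, each limit of the rule, depth, the CPM total, the filter on low genes and the fold. Leaving out off-type barcodes and taking members of 2000 to 4000 UMIs were chosen after seeing the data.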

Additional observations from a re-analysis of the deposited data

How the results depend on the processing

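No paired analysis was possible because each condition has 1 library. The member share ratio of 4.10 was 1.69 over mature and 1.48 over all gated neutrophils, and moved by less than its counting range under the other 10 alternatives. The 70 of 2678 genes 2-fold higher under combo became 43 of 2371 without off-type barcodes and 32 of 1719 with members thinned. They became 119 of 3067 with S100a8 and S100a9 left out of the total and 25 of the 2678 at 3-fold. The 727 genes at least 2-fold lower under combo in members became 402 with barcodes thinned before the gate, 164 in members of 2000 to 4000 UMIs, 387 with members thinned, 422 without off-type barcodes, S100a8 and S100a9, 253 at 3-fold, and 1589 with a minimum of 20 CPM or none, where 10 counts bound the lenvatinib level more than the combo level. Against Ptgs2-positive cells, the 5 of 2059 genes higher became 8 with at least 2 Csf3r UMIs and 2 in members of 2000 to 4000 UMIs. They became 12 at 20 CPM and 0 at 3-fold. The 21 of 2059 lower became 12 of 2002 without off-type barcodes, 0 in members of 2000 to 4000 UMIs, 4 with members thinned and 2 at 3-fold. Among named genes at least 2-fold apart, 8 turned direction under some alternative, with 15 such values, and genes nearer to 1 such as Mmp9 and Cxcr2 also passed to the other side. Without off-type barcodes these were Prtn3 at 2.50, Cox6a2 and Tcf4 at 1.62, Ccnd1 at 1.22 and Ccr9 at 2.16, and with S100a8 and S100a9 also left out of the total 2.79, 1.81, 1.81, 1.36 and 2.41. Thinning before the gate gave a CPM ratio of Prtn3 of 1.92 and a CPM ratio of Fcnb of 6.08, and a limit of 2% for S100a8 and S100a9 gave Tcf4 1.45. In members of 2000 to 4000 UMIs Retnlg was at 0.639 and Tnf at 1.24. The cause was not tested beyond what each alternative leaves out. Depth limits the lenvatinib side, where a gene under 21.9 CPM was not compared.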
